A study of Mus musculus with 48 samples.

Results

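Microglial activation and polarization were followed here through 9 genes: Nos2, Ptgs2, Cd86, Fcgr2b, Arg1, Il4ra, Sphk1, Tnf and Il6. They were represented by every probe, other than control probes, that the array annotation assigns to 1 of these gene names, namely 11 of 55681 probes and 9 of 22290 genes with a name known to RefSeq. Il4ra and Sphk1 had 2 probes and the other genes 1 probe. Male swiss mouse pups had received intraperitoneal PBS, or the inflammatory cytokine IL1B at 10 ng/g. Injections were given 2 times a day from P1 to P4 and 1 time at P5. Brains were taken 2 h after the last injection or at P10. O4+ cells, of the oligodendrocyte lineage, and CD11B+ cells, the microglia and other myeloid cells of the brain, were then isolated with magnetic beads. RNA of each sample was hybridised to 1 single-colour Agilent array, giving 48 arrays in 8 groups of 6: PBS and IL1B, at P5 and P10, in O4+ and in CD11B+ cells. No group was free of injections, since the PBS pups were handled in the same way. Per the study's methods the cerebellum and olfactory bulbs were removed, several brains were pooled into a sample, and the CD11B+ cells came from the suspension that the O4 isolation had left. The methods name the mice OF1 and give a later collection time at P5, and the labels do not say which arrays came from separate litters, so p-values measure the spread between these samples.

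Microglia, the resident macrophages of the brain, change their transcript repertoire when they meet inflammatory signals. A classical, pro-inflammatory state is commonly marked by inducible nitric oxide synthase (Nos2), cyclooxygenase 2 (Ptgs2), the costimulatory protein Cd86, the Fc gamma receptor Fcgr2b and the cytokines Tnf and Il6, whereas arginase 1 (Arg1) is the usual marker of alternative activation, and the interleukin 4 receptor alpha chain (Il4ra) and sphingosine kinase 1 (Sphk1) are used as markers of an immunoregulatory state. NF-kappaB and C/EBP proteins are known regulators of several of these promoters, and STAT6 acts downstream of Il4ra.

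Promoter sequence was at hand for Ptgs2, Fcgr2b, Il4ra, Sphk1, Tnf and Il6. The 250 bases before the transcription start are shown for 4 of them, from RefSeq on GRCm38.p6 and written 5′ to 3′ on the strand of the gene. These 4 genes carry contrasts described below. Il6 and Ptgs2 were higher after IL1B in O4+ cells at P5, and Il4ra differed between its probes. In CD11B+ cells the Tnf change after IL1B had opposite signs at P5 and P10. Capitals mark matches to an NF-kappaB site, to the C/EBP motif TTNNGNAA, to the STAT6 motif TTCNNNNGAA or to the TATA box TATAAA, each searched on both strands.
Il6, chr5:30012864-30013113, plus strand: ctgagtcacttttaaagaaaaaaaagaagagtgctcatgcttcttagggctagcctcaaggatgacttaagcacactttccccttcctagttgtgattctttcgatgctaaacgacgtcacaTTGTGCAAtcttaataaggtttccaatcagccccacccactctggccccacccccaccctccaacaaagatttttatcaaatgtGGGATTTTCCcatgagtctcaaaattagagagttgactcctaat
Ptgs2, chr1:150099781-150100030, plus strand: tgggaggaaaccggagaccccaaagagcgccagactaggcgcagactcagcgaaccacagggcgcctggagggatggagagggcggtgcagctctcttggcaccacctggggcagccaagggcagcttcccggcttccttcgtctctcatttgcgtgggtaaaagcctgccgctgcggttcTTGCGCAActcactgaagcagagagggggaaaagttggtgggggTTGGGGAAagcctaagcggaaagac
Tnf, chr17:35202008-35202257, minus strand: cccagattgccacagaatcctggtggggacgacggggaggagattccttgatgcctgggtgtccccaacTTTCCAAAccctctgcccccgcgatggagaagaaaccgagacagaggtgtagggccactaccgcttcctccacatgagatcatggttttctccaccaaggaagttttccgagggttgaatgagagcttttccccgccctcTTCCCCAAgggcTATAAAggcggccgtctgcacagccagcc
Il4ra, chr7:125552021-125552270, plus strand: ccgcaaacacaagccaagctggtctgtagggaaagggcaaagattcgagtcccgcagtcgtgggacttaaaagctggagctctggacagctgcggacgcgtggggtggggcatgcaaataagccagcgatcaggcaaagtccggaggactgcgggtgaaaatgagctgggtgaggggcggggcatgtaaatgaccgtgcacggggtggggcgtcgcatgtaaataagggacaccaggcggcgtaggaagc
The Il6 window held an NF-kappaB match from 44 to 35 bases before the start and a C/EBP match from 128 to 121. Ptgs2 held C/EBP matches from 69 to 62 and from 25 to 18 bases before its start, the first of which reads the same on both strands. Tnf held C/EBP matches on the opposite strand from 181 to 174 and from 41 to 34 bases before the start, and a TATA box from 29 to 24. Sphk1 had 5 windows, not shown. The first held an NF-kappaB match on the opposite strand from 91 to 82 bases before the start and a TATA box from 31 to 26. C/EBP matches lay in windows 1, 4 and 5 of Sphk1. Neither Il4ra nor Fcgr2b had a match to any of these motifs in its window. Among 32851 mouse promoter windows of this length, 7.251% held the NF-kappaB site, 36.85% the C/EBP motif, 5.854% the STAT6 motif and 12.37% the TATA box, so that these matches are descriptions of the sequence only.

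Between 52.9% and 65.4% of probes were well above background on an array, no spot was saturated, and arrays of a group correlated at 0.958 or more. The cell type labels were checked against marker genes. The mean log2 signal of 15 microglial markers (among them Csf1r, Cx3cr1 and Tmem119) was 15.78 to 16.48 in CD11B+ and 11.97 to 14.63 in O4+ arrays, and that of 12 oligodendrocyte lineage markers was 13.72 to 15.86 in O4+ and 8.38 to 11.63 in CD11B+ arrays. All 15 microglial markers were thus also measured in the O4+ samples. At P5 the oligodendrocyte list in O4+ arrays was at 14.10 to 14.43 after PBS and 13.72 to 14.19 after IL1B. The microglial list in those arrays was at 12.92 to 13.53 and 14.19 to 14.63, so it was the higher list after IL1B. The lists hold different genes, so these levels give no share of cells. P5 and P10 arrays shared no slide and no scan day, so age and array batch cannot be told apart.

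A gene was called changed when the limma adjusted p was under 0.05 over all 55681 probes and the ratio of the group medians was above 1.5 in either direction. At P5 in O4+ cells, 6 of the 9 genes were called higher after IL1B and 0 lower, against 4.93% of all genes called higher and 1.79% lower. In O4+ cells at P10, 4 were called higher and 0 lower, against 3.58% and 1.70% of all genes. At P5 in CD11B+ cells, 4 were called higher and 1 lower, against 5.38% and 7.54%, and at P10 there was 1 called higher and 0 lower, against 1.48% and 1.22%. Over the 9 genes the log2 change had a median of 1.60 in O4+ cells at P5, 0.66 in O4+ cells at P10, 0.62 in CD11B+ cells at P5 and 0.61 in CD11B+ cells at P10, beside medians of -0.06, -0.01, -0.05 and 0.00 over all genes.

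**Figure D1:**
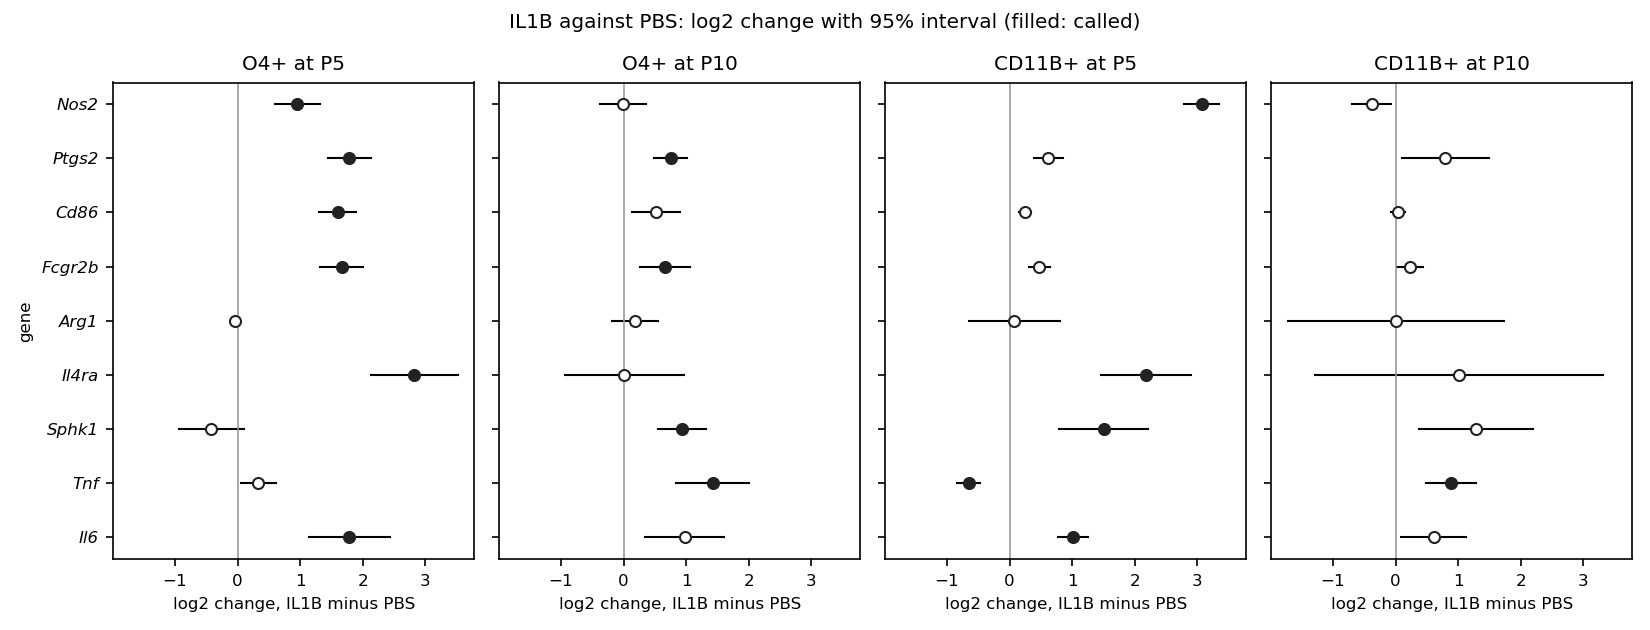
Log2 difference between IL1B and PBS (horizontal axis, with 95% confidence interval) for the main probe of each of the 9 genes (vertical axis), in O4+ and CD11B+ cells at P5 and P10. Filled points mark called genes: 6 in O4+ cells at P5, 4 in O4+ cells at P10, 5 in CD11B+ cells at P5 and 1 in CD11B+ cells at P10.

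Nos2, which makes nitric oxide from arginine, rose in both cell types at P5 and in neither at P10. Levels are given from here on as the lowest, median and highest log2 signal of the 6 arrays of a group, quantile-normalized within a cell type. In CD11B+ cells at P5, Nos2 was at 7.24, 7.63 and 7.80 after PBS and at 10.18, 10.73 and 10.90 after IL1B. Every IL1B array lay above every PBS array by more than the range of either group. The log2 change was 3.07 (SE 0.13, 95% interval 2.79 to 3.35), an 8.54-fold ratio of medians (limma adjusted p = 6.51e-08). At P5 in O4+ cells, Nos2 was at 7.80, 8.14 and 8.39 after PBS and at 8.72, 8.96 and 9.64 after IL1B, again without overlap. This change was 0.96 (SE 0.17), or 1.76-fold (limma adjusted p = 0.00233). At P10, Nos2 in CD11B+ cells was at 6.88, 7.24 and 7.47 after PBS and at 6.28, 6.92 and 7.12 after IL1B. The IL1B arrays overlapped the PBS arrays and the change of -0.38 (95% interval -0.70 to -0.07) did not pass (limma adjusted p = 0.134). At P10 in O4+ cells, Nos2 was at 7.20, 7.91 and 8.01 after PBS and 7.25, 7.87 and 8.04 after IL1B, a change of -0.01 with a 95% interval of -0.38 to 0.36.

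Arg1, the cytosolic arginase, was barely measurable. It was well above background on 0 arrays in any of the O4+ groups and in the CD11B+ groups at P5, and on 1 of 6 arrays in each CD11B+ group at P10. The PBS array above background at P10 was replicate 6, at a log2 signal of 6.33, beside a group median of 2.39. No fold is given for Arg1 in these groups, and it was called in no comparison.

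Of 11 other genes of nitric oxide and arginine metabolism, 2 were called higher and 2 lower after IL1B in O4+ cells at P5 (median log2 change -0.12), and 0 in either direction at P10 (median 0.08). In CD11B+ cells 3 were higher and 3 lower at P5 (median 0.09), and 0 higher and 1 lower at P10 (median 0.15). Arg2, the mitochondrial arginase, went from a mean log2 signal of 6.00 to 9.07 in CD11B+ cells at P5, an 8.28-fold rise by medians (limma adjusted p = 7.12e-07). Nos3, the endothelial nitric oxide synthase, fell by 1.5 on the log2 scale in O4+ cells at P5 (limma adjusted p = 0.000759), where 6 of 7 endothelial markers also fell. Ddah2, which degrades methylated arginines that inhibit nitric oxide synthases, fell by 0.60 in CD11B+ cells at P10 (limma adjusted p = 0.0159).

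Ptgs2, the inducible enzyme of prostaglandin synthesis, rose after IL1B in O4+ cells at both ages. At P5 its log2 signal in O4+ cells was 6.31, 6.66 and 6.87 after PBS and 7.77, 8.53 and 8.73 after IL1B. No IL1B array reached down to the PBS range, and the change was 1.79 (SE 0.15), or 3.65-fold (limma adjusted p = 2.04e-05). At P10 Ptgs2 was at 4.74, 5.18 and 5.28 after PBS and at 5.56, 5.86 and 6.15 after IL1B in O4+ cells, also without overlap. The P10 change was 0.75 (SE 0.12), or 1.60-fold (limma adjusted p = 0.00428). For CD11B+ cells at P5, Ptgs2 was at 8.88, 9.26 and 9.35 after PBS and at 9.57, 9.83 and 10.00 after IL1B. These groups did not overlap either, but the 1.49-fold ratio was just under the fold threshold (log2 change 0.62, limma adjusted p = 0.00149). It was called when IL1B replicate 1, 2 or 4 was left out (changes of 0.67, 0.63 and 0.66). At P10 in CD11B+ cells the arrays ranged from 6.75 to 7.86 after PBS and from 7.16 to 8.94 after IL1B, and the change of 0.80 (95% interval 0.10 to 1.5) did not pass (limma adjusted p = 0.158).

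Among 12 other prostaglandin genes, 3 were higher and 3 lower in O4+ cells at P5 (median log2 change -0.10), 0 and 1 in O4+ cells at P10 (median -0.04), 2 and 2 in CD11B+ cells at P5 (median -0.13), and 1 and 1 in CD11B+ cells at P10 (median -0.12). The prostaglandin E2 receptor Ptger4 had a mean log2 signal of 3.68 after PBS, where 1 of 6 arrays was well above background, and of 7.41 after IL1B in O4+ cells at P5, where all 6 were. It rose (limma adjusted p = 5.03e-06), and the fitted change of 3.73 rests on PBS signals that were mostly not well above background. Ptger1, a further receptor of prostaglandin E2, fell by 0.65 in O4+ cells at P10 (limma adjusted p = 0.00864). Hpgd, which inactivates prostaglandins, fell by 2.70 in CD11B+ cells at P5 (limma adjusted p = 0.000571). Ptger3, another prostaglandin E2 receptor, fell by 2.29 in CD11B+ cells at P10 (limma adjusted p = 0.0176).

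Cd86, a ligand of the T cell costimulatory receptors, rose in O4+ cells at P5. Its log2 signal there was 8.94, 9.55 and 9.69 after PBS and 10.85, 10.99 and 11.32 after IL1B. The lowest IL1B array was thus above the highest PBS array, with a change of 1.60 (SE 0.13), or 2.71-fold (limma adjusted p = 1.66e-05). Cd86 in O4+ cells at P10 was at 7.72, 7.88 and 8.50 after PBS and 8.23, 8.40 and 8.97 after IL1B, with overlap, and the change of 0.52 did not pass (limma adjusted p = 0.0808). In CD11B+ cells at P5, Cd86 was at 13.20, 13.26 and 13.29 after PBS and at 13.41, 13.51 and 13.58 after IL1B. The groups were narrow and apart, and the change of 0.25 (SE 0.04, limma adjusted p = 0.00139) was 1.19-fold, under the fold threshold. At P10 the CD11B+ arrays lay at 13.01 to 13.25 after PBS and 13.11 to 13.27 after IL1B, a change of 0.03 with a 95% interval of -0.08 to 0.15.

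Fcgr2b, the inhibitory Fc gamma receptor, rose together with Cd86 in O4+ cells at P5. It was at 8.05, 8.35 and 8.67 after PBS and at 9.63, 9.97 and 10.47 after IL1B. All IL1B arrays lay above all PBS arrays, with a change of 1.66 (SE 0.16), or 3.06-fold (limma adjusted p = 4.29e-05). At P10 Fcgr2b in O4+ cells was at 7.10, 7.70 and 7.96 after PBS and at 7.72, 8.42 and 8.76 after IL1B, where the lowest IL1B array fell among the PBS arrays. The change of 0.66 (SE 0.18), or 1.65-fold, passed narrowly (limma adjusted p = 0.0419), and was lost in 10 of 12 fits that left out 1 array and with slide as a block (limma adjusted p = 0.144). At P5 in CD11B+ cells, Fcgr2b was at 12.26, 12.43 and 12.61 after PBS and at 12.75, 12.90 and 13.10 after IL1B, apart but 1.38-fold (log2 change 0.48, limma adjusted p = 0.000883). At P10 the arrays overlapped and the change was 0.24 (95% interval 0.03 to 0.45, limma adjusted p = 0.162).

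All 7 other Fc gamma receptor and signalling genes (Fcgr1, Fcgr3, Fcgr4, Fcer1g, Syk, Lyn and Inpp5d) rose in O4+ cells at P5, with a median log2 change of 1.38, whereas 2 rose in O4+ cells at P10 (median 0.56) and 1 in CD11B+ cells at P5 (median 0.25). At P10 in CD11B+ cells, 1 was higher and 1 lower (median 0.01). Fcgr4, an activating receptor, rose by 2.49 in O4+ cells at P5 (limma adjusted p = 8.19e-07), 1.43 in O4+ cells at P10 (limma adjusted p = 0.00127), 2.18 in CD11B+ cells at P5 (limma adjusted p = 1.17e-06) and 1.40 in CD11B+ cells at P10 (limma adjusted p = 0.0207). Of 7 other genes of the B7 and costimulatory group, 3 rose in O4+ cells at P5 (median 0.49), 2 in O4+ cells at P10 (median 0.09), 4 in CD11B+ cells at P5 (median 1.24) and 1 in CD11B+ cells at P10 (median 0.38), while 1 fell, in CD11B+ cells at P5. Icosl, the ligand of the costimulatory receptor Icos, rose by 2.61 in O4+ cells at P5 (limma adjusted p = 4.95e-07). Cd40, a receptor of antigen-presenting cells, rose by 1.73 in CD11B+ cells at P5 (limma adjusted p = 3.31e-05). Cd274, the inhibitory ligand also called PD-L1, rose by 1.83 in O4+ cells at P10 (limma adjusted p = 0.00592), where 2 of 6 PBS arrays were well above background, and by 1.39 in CD11B+ cells at P10 (limma adjusted p = 0.0159).

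Il4ra, the receptor chain shared by interleukins 4 and 13, rose after IL1B in O4+ cells at P5. The change of its first probe was larger than that of any other of the 9 genes there, while that of its second probe was smaller than those of Ptgs2, Il6, Fcgr2b and Cd86. The probe of higher signal (mm9, chr7:132722922-132722981) was at 5.53, 5.71 and 6.57 after PBS and at 7.78, 8.64 and 9.91 after IL1B in those cells. Every IL1B array was above every PBS array, and the change was 2.82 (SE 0.32), or 7.62-fold (limma adjusted p = 0.000123). The other probe (mm9, chr7:132712550-132712609) was at 3.89, 4.25 and 4.99 after PBS, where 5 of 6 arrays were well above background, and at 5.54, 5.91 and 6.21 after IL1B. It too was apart, with a change of 1.53, or 3.20-fold (limma adjusted p = 0.000498). For CD11B+ cells at P5 the first probe was at 8.48, 9.19 and 9.73 after PBS and at 10.49, 11.03 and 12.54 after IL1B, a change of 2.19 (SE 0.33), or 3.58-fold (limma adjusted p = 0.000523). This call was lost with slide as a block (change 2.54, limma adjusted p = 0.0615). The second probe there was at 6.55, 6.84 and 9.46 after PBS and at 7.22, 8.30 and 8.74 after IL1B. A single PBS array lay above all IL1B arrays, and its change of 0.98 did not pass (limma adjusted p = 0.187).

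At P10 the probes of Il4ra disagreed. In CD11B+ cells the first probe spread from 4.19 to 8.41 after PBS and from 5.42 to 9.38 after IL1B, and its change of 1.01 (SE 1.04) did not pass (limma adjusted p = 0.615). The second probe was at 6.17, 6.27 and 6.56 after PBS and at 6.86, 6.93 and 7.13 after IL1B. Its groups were apart and its change of 0.66 (SE 0.07), or 1.58-fold, passed (limma adjusted p = 0.0135). At P10 in O4+ cells the first probe ranged from 4.03 to 5.54 after PBS and from 3.39 to 5.62 after IL1B, with 4 of 6 arrays well above background in each group, and the second probe was above background on 1 array in each.

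The arrays with low first-probe signal carried the same replicate numbers in both cell types. At P10 after PBS, replicates 1 and 2 were at 4.37 and 4.19 in CD11B+ cells and at 4.09 and 4.03 in O4+ cells. After IL1B at P10, replicates 5 and 6 were at 5.42 and 5.46 in CD11B+ cells and at 3.71 and 3.39 in O4+ cells. These were the lowest arrays of their groups in each cell type. At P5 the highest and lowest arrays also shared numbers across cell types: replicates 5 and 2 after PBS, and replicates 2 and 4 after IL1B. The labels do not say that a number marks the same animals, and the second probe did not show these low arrays in CD11B+ cells.

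**Figure D2:**
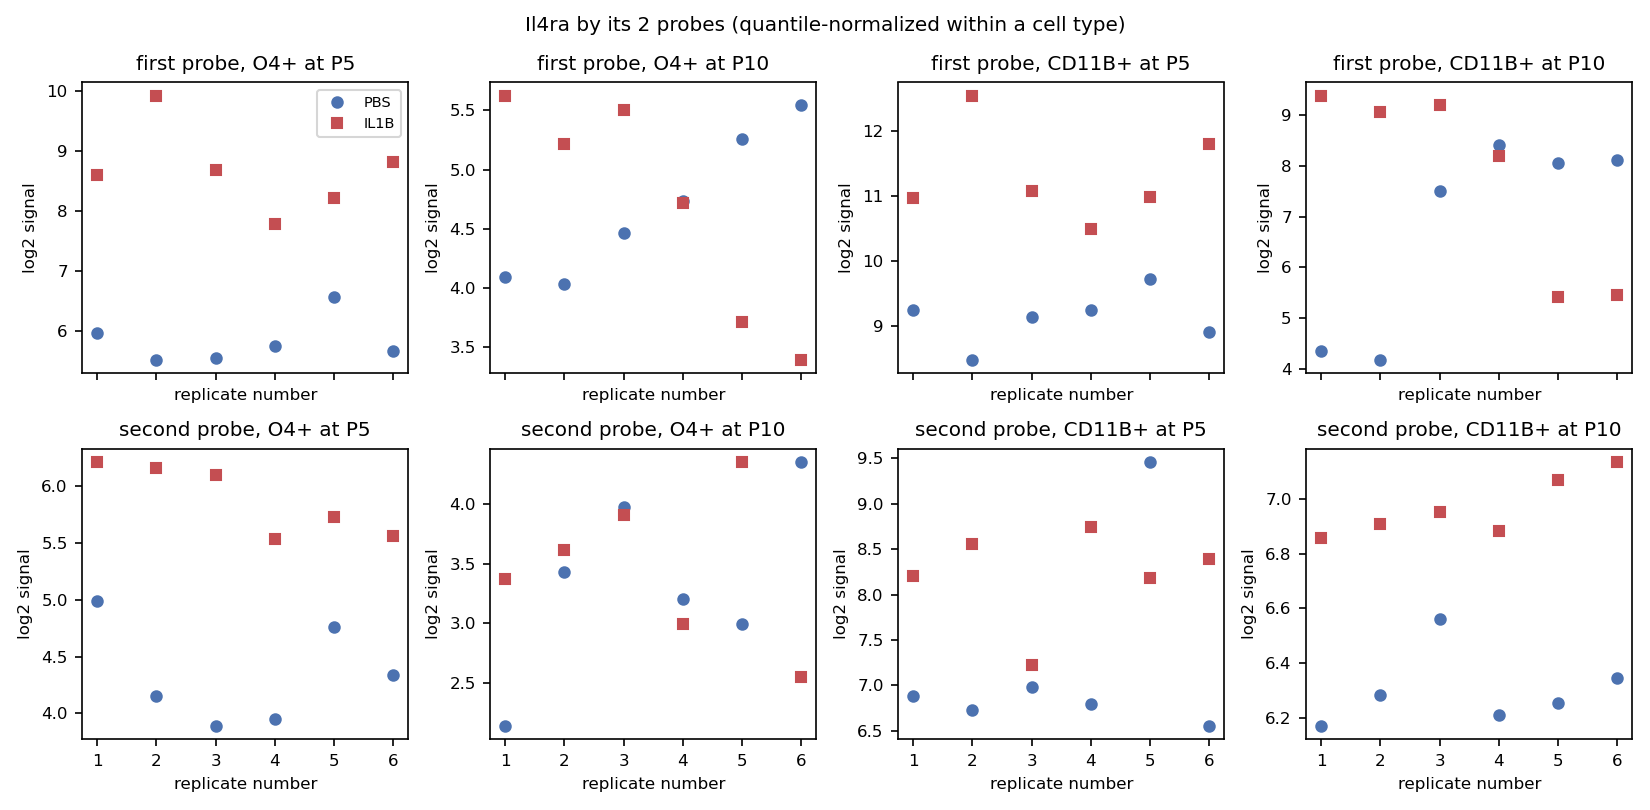
Log2 signal (vertical axis, quantile-normalized within a cell type) of the 2 Il4ra probes for replicates 1 to 6 (horizontal axis) of PBS and IL1B, with a panel for each cell type and age. At P10 in CD11B+ cells the first probe drops to between 4.19 and 5.46 in PBS replicates 1 and 2 and IL1B replicates 5 and 6, while the second probe stays between 6.17 and 7.13.

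Of 11 other genes of interleukin 4 and 13 signalling, 3 were higher and 1 lower in O4+ cells at P5 (median 0.29), 1 and 0 in O4+ cells at P10 (median 0.01), 5 and 1 in CD11B+ cells at P5 (median 0.64) and 1 and 0 in CD11B+ cells at P10 (median 0.23). Jak3, a kinase of the common gamma chain, rose by 1.15 in O4+ cells at P5 (limma adjusted p = 0.000448). Il13ra1, the partner of Il4ra in the interleukin 13 receptor, rose by 0.64 in O4+ cells at P10 (limma adjusted p = 0.0179), where 4 of 6 PBS arrays were well above background. Cish, an inducible inhibitor of cytokine signalling, rose by 1.85 in CD11B+ cells at P5 (limma adjusted p = 1.28e-05). Il2rg, the common gamma chain itself, rose by 1.17 in CD11B+ cells at P10 (limma adjusted p = 0.0135).

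Among 7 further markers of alternative activation or repair, 5 were higher and 0 lower in O4+ cells at P5 (median 0.86), 2 and 0 in O4+ cells at P10 (median 0.32), 3 and 1 in CD11B+ cells at P5 (median 0.10) and 2 and 0 in CD11B+ cells at P10 (median 0.85). Lgals3, the lectin galectin 3, rose by 1.45 in O4+ cells at P5 (limma adjusted p = 0.0186), by 2.52 in CD11B+ cells at P5 (limma adjusted p = 1.09e-07) and by 1.05 in CD11B+ cells at P10 (limma adjusted p = 0.0416). Igf1, a growth factor, rose by 1.23 in O4+ cells at P10 (limma adjusted p = 0.0184).

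Sphk1, which phosphorylates sphingosine, behaved differently in the O4+ and CD11B+ cells at P5. In O4+ cells at P5 it was at 8.52, 8.92 and 9.34 after PBS and at 7.98, 8.44 and 9.48 after IL1B, overlapping, and the change of -0.42 (95% interval -0.94 to 0.10) did not pass (limma adjusted p = 0.275). At P5 in CD11B+ cells it was at 6.82, 7.33 and 8.70 after PBS and at 8.13, 9.04 and 9.46 after IL1B. The single PBS array at 8.70 lay within the IL1B range, and the change was 1.5 (SE 0.33), or 3.25-fold (limma adjusted p = 0.00591). At P10 in O4+ cells Sphk1 was at 6.70, 7.13 and 7.73 after PBS and at 7.58, 8.17 and 8.37 after IL1B. The change was 0.93 (SE 0.17), or 2.06-fold (limma adjusted p = 0.00816), although the lowest IL1B array was below the highest PBS array. In CD11B+ cells at P10 it was at 4.98, 5.82 and 6.90 after PBS and at 6.53, 6.91 and 8.90 after IL1B, and the change of 1.29 (95% interval 0.38 to 2.20) did not pass (limma adjusted p = 0.0856), although it did without PBS replicate 6 (1.49, limma adjusted p = 0.0362). The second Sphk1 probe gave calls in the same comparisons, with 1.38 in CD11B+ cells at P5 (limma adjusted p = 0.0357) and 1.28 in O4+ cells at P10 (limma adjusted p = 0.0283). Of the 10 other measured genes of sphingosine 1-phosphate metabolism, export and reception, 1 rose and 0 fell in O4+ cells at P5 (median -0.07), 0 and 1 in O4+ cells at P10 (median 0.14), 2 and 2 in CD11B+ cells at P5 (median -0.05) and 0 and 0 in CD11B+ cells at P10 (median 0.11). S1pr2, a receptor of sphingosine 1-phosphate, rose by 0.79 in O4+ cells at P5 (limma adjusted p = 1.84e-05). S1pr5, a receptor of oligodendrocytes, fell by 0.83 in O4+ cells at P10 (limma adjusted p = 0.00596), and the exporter Spns2 rose by 1.13 in CD11B+ cells at P5 (limma adjusted p = 3.17e-05).

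Tnf, the cytokine tumour necrosis factor, fell in CD11B+ cells at P5 and rose at P10. Its log2 signal at P5 was 13.83, 13.90 and 14.09 after PBS and 13.11, 13.26 and 13.52 after IL1B. All IL1B arrays lay below all PBS arrays, and Tnf fell by 0.65 (SE 0.08), or 1.56-fold (limma adjusted p = 0.000151). With slide as a block the change was -0.48 (limma adjusted p = 0.0816), and without IL1B replicate 1, 2 or 3 the ratio came under the fold threshold (changes of -0.62, -0.62 and -0.63). At P10 Tnf in CD11B+ cells was at 12.89, 13.36 and 13.92 after PBS and at 13.88, 14.27 and 14.46 after IL1B. Only the highest PBS array reached the IL1B range, and the change was 0.89 (SE 0.18), or 1.87-fold (limma adjusted p = 0.0224). With slide as a block it was 0.63 (limma adjusted p = 0.475), and it was lost without PBS replicate 2 (limma adjusted p = 0.0532), PBS replicate 3 (limma adjusted p = 0.0554) or IL1B replicate 5 (limma adjusted p = 0.0506).

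At P5 in O4+ cells, Tnf was at 10.61, 11.03 and 11.34 after PBS and at 11.06, 11.35 and 11.57 after IL1B, and the change of 0.33 (95% interval 0.05 to 0.61) did not pass (limma adjusted p = 0.101). At P10 it was at 7.13, 7.82 and 8.41 after PBS and at 8.64, 9.14 and 10.10 after IL1B. These groups did not overlap, and the change was 1.42 (SE 0.27), or 2.47-fold (limma adjusted p = 0.00791). Among 10 other TNF receptor and signalling genes, 4 rose in O4+ cells at P5 (median 0.56), 2 in O4+ cells at P10 (median 0.21), 1 in CD11B+ cells at P5 (median 0.10) and 0 in CD11B+ cells at P10 (median 0.05), and 0 fell in any of these comparisons. Tnfrsf1b, a TNF receptor, rose by 1.45 in O4+ cells at P5 (limma adjusted p = 4.94e-05), Tnfaip3, an inhibitor of NF-kappaB signalling, by 1.07 in O4+ cells at P10 (limma adjusted p = 0.0055), and Adam17, the protease that sheds TNF, by 0.70 in CD11B+ cells at P5 (limma adjusted p = 0.000366).

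Il6, the cytokine interleukin 6, rose in both cell types at P5. In CD11B+ cells it was at 8.15, 8.54 and 8.67 after PBS and at 9.20, 9.50 and 9.78 after IL1B. No array overlapped, and the change was 1.01 (SE 0.11), or 1.95-fold (limma adjusted p = 5.84e-05). At P5 in O4+ cells it was at 4.04, 4.99 and 5.27 after PBS and at 5.60, 6.73 and 7.12 after IL1B, also apart, a change of 1.78 (SE 0.30), or 3.35-fold (limma adjusted p = 0.00168). For CD11B+ cells at P10, Il6 was at 6.99, 7.61 and 8.42 after PBS and at 7.94, 8.13 and 8.54 after IL1B, overlapping, and the change of 0.61 (95% interval 0.09 to 1.13) did not pass (limma adjusted p = 0.146), although it did without PBS replicate 6 (0.78, limma adjusted p = 0.0251). At P10 in O4+ cells it was not well above background on any PBS array and was so on 2 of 6 IL1B arrays, so its level there is a bound (fitted change 0.97, limma adjusted p = 0.0525). That change passed without PBS replicate 3 (limma adjusted p = 0.0306) or IL1B replicate 3 (limma adjusted p = 0.0323). Of 7 other genes of interleukin 6 signalling, 2 rose in O4+ cells at P5 (median 0.32), 0 changed in O4+ cells at P10 (median 0.25), 3 rose and 1 fell in CD11B+ cells at P5 (median 0.34) and 0 changed in CD11B+ cells at P10 (median -0.12). Socs3, the feedback inhibitor of this receptor, rose by 2.21 in O4+ cells at P5 (limma adjusted p = 1.54e-06), and Lifr, a receptor that pairs with the same signalling chain, by 1.61 in CD11B+ cells at P5 (limma adjusted p = 8.07e-08).

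**Figure D3:**
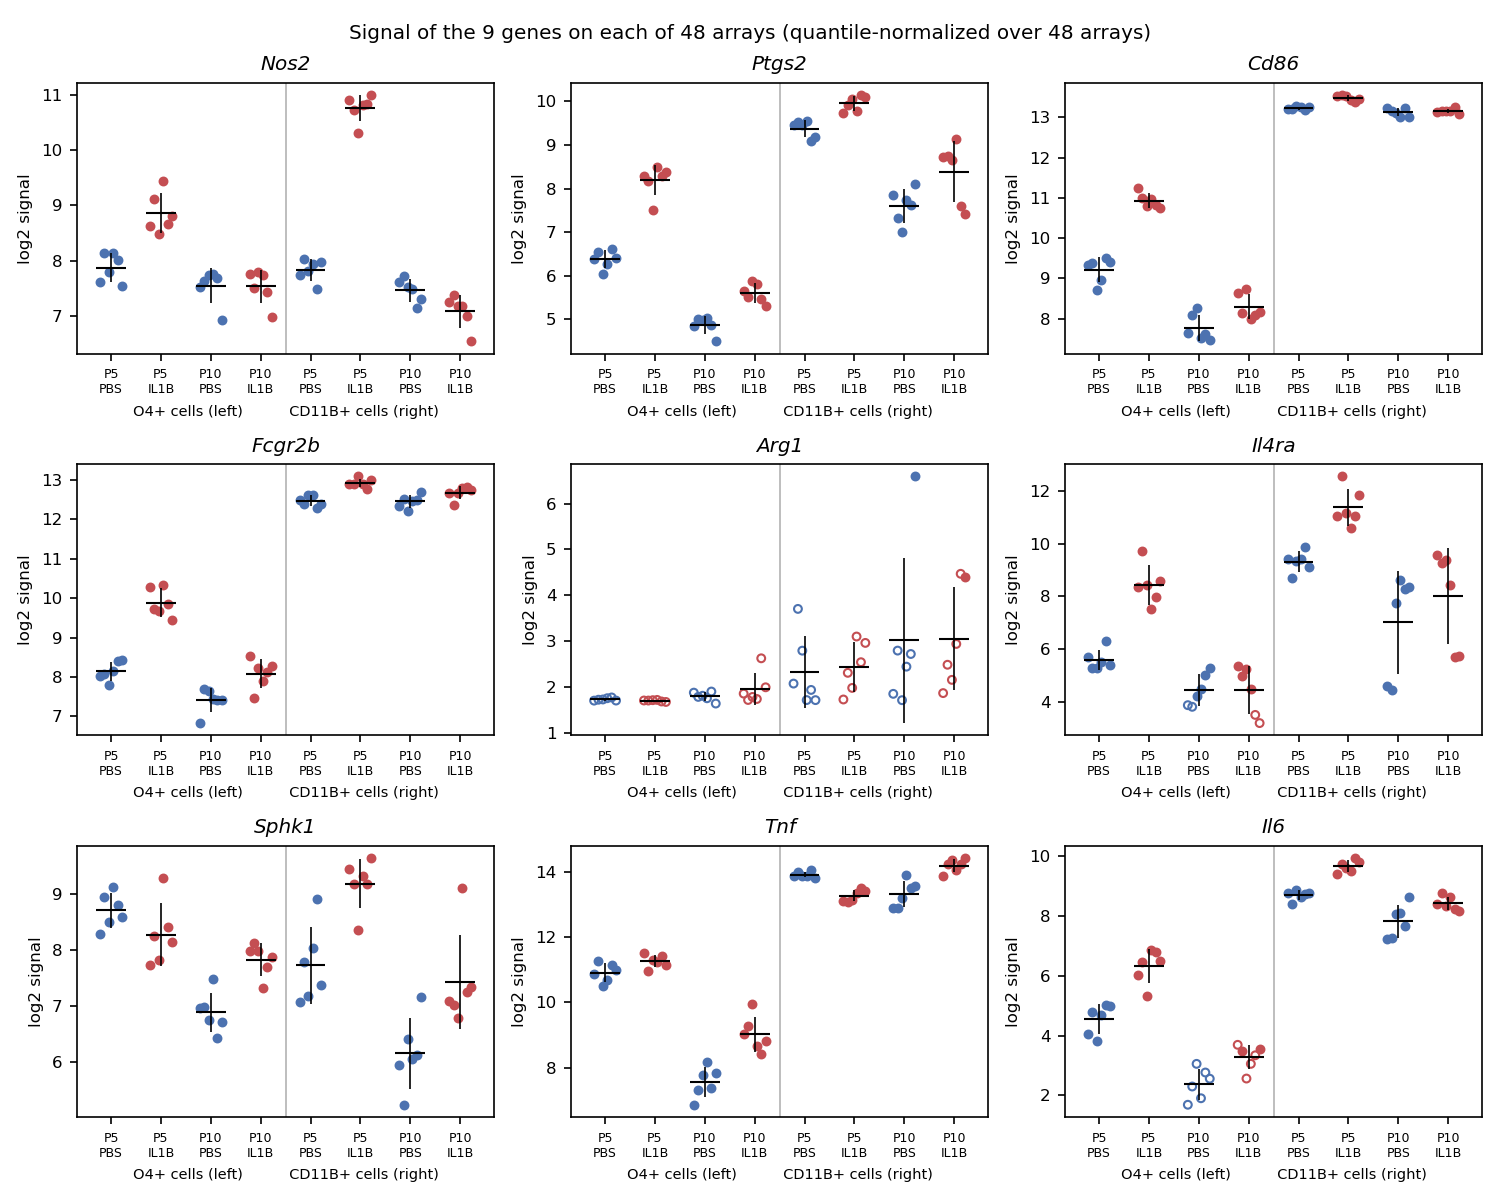
Log2 signal (vertical axis, all 48 arrays normalized together) of the main probe of each of the 9 genes, grouped by cell type, age and treatment (horizontal axis). Filled points were well above background and open points were not, lines are group means and bars are SDs (n = 6). On this scale Nos2 in CD11B+ cells at P5 lies between 7.49 and 8.04 after PBS and between 10.31 and 10.99 after IL1B. Arg1 is open on nearly all arrays.

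Slides that held both groups of a comparison allowed the change to be read within a slide, from few arrays and with no test. At P5 in O4+ cells there were 2 such slides, each with 1 IL1B array, and the 6 called genes were higher after IL1B on both. There Nos2 differed by 1.11 and 0.93, Ptgs2 by 1.70 and 2.04, Cd86 by 1.60 and 2.05, Fcgr2b by 1.5 and 2.05, Il4ra by 3.95 and 2.99, and Il6 by 1.83 and 1.65. In O4+ cells at P10 the 4 called genes were likewise higher on both of 2 slides, with differences of 0.66 and 0.83 for Ptgs2, 0.57 and 0.85 for Fcgr2b, 1.11 and 1.15 for Sphk1 and 1.61 and 0.94 for Tnf. At P5 in CD11B+ cells a slide with 4 IL1B arrays and 1 PBS array gave 3.00 for Nos2, 2.54 for Il4ra, 2.00 for Sphk1, 1.03 for Il6 and -0.48 for Tnf. At P10 in CD11B+ cells a slide with 5 IL1B and 2 PBS arrays gave 0.63 for Tnf. Every called IL1B change thus kept its sign within these slides. In CD11B+ cells these differences are the same estimates as those with slide as a block, and not a further check. The other arrays of each comparison were on slides without the other group, so treatment and slide could be separated only in part.

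Whether the IL1B response differed between ages or cell types was tested directly, as the difference between 2 responses (limma adjusted p under 0.05, no fold threshold). In O4+ cells the response at P10 minus that at P5 was positive for 2 and negative for 5 of the 9 genes, against 11.9% and 6.95% of all genes. The difference was -2.82 for Il4ra (95% interval -3.96 to -1.68, limma adjusted p = 0.00145), -1.08 for Cd86 (limma adjusted p = 0.00232), -1.04 for Ptgs2 (limma adjusted p = 0.00129), -1.0 for Fcgr2b (limma adjusted p = 0.00925) and -0.97 for Nos2 (limma adjusted p = 0.00953). These 5 genes responded more at P5. For Il4ra, 4 of 6 arrays were well above background in each O4+ group at P10. Its second probe, mostly not well above background there, gave -1.42 (limma adjusted p = 0.0408). The difference was 1.35 for Sphk1 (95% interval 0.72 to 1.98, limma adjusted p = 0.00435) and 1.09 for Tnf (limma adjusted p = 0.0184), which responded more at P10. For Il6 it was -0.81 (95% interval -1.69 to 0.07) and did not pass. With slide as a block the differences of Fcgr2b (limma adjusted p = 0.0747) and Tnf (limma adjusted p = 0.147) did not pass.

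In CD11B+ cells 1 difference between ages was positive and 2 were negative, against 16.3% and 7.88% of all genes. It was -3.45 for Nos2 (95% interval -3.86 to -3.04, limma adjusted p = 2.32e-10), 1.55 for Tnf (95% interval 1.13 to 1.97, limma adjusted p = 1.39e-05) and -0.22 for Cd86 (limma adjusted p = 0.0289). The Tnf response thus differed in sign between ages, and the Nos2 response was smaller at P10. With slide as a block the Tnf difference was 1.11 (limma adjusted p = 0.0867) and that of Cd86 -0.14 (limma adjusted p = 0.723). At P5 the response in CD11B+ cells minus that in O4+ cells was positive for 2 and negative for 4 genes, against 5.20% and 11.7% of all genes. The difference was 1.94 for Nos2 (limma adjusted p = 2.01e-06) and 1.89 for Sphk1 (limma adjusted p = 0.00312), which responded more in CD11B+ cells. It was -1.46 for Cd86 (limma adjusted p = 7.62e-07), -1.29 for Fcgr2b (limma adjusted p = 4.96e-05), -1.23 for Ptgs2 (limma adjusted p = 0.000117) and -1.0 for Tnf (limma adjusted p = 0.000163). The IL1B responses of these 4 genes, not their levels, were lower in CD11B+ cells, where Tnf fell. With slide as a block the differences of Ptgs2 (limma adjusted p = 0.0503) and Tnf (limma adjusted p = 0.124) did not pass. At P10, 0 genes passed in either direction, against 4.54% and 6.19% of all genes. Without adjustment 2 of the P10 differences passed at 0.05 in limma, those of Cd86 (-0.50) and Fcgr2b (-0.45). Each age difference and each cell type difference uses the same PBS arrays as the responses it is made of.

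**Figure D4:**
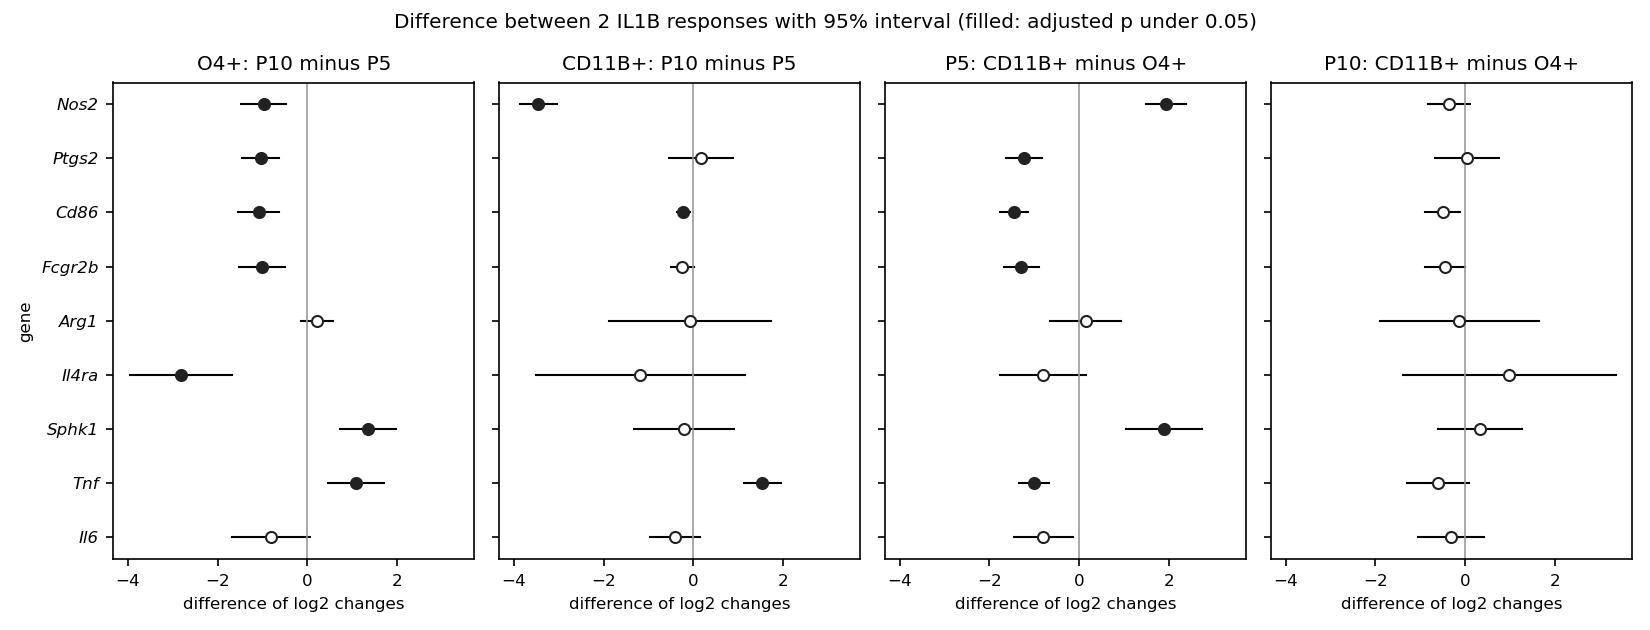
Difference between 2 IL1B responses on the log2 scale (horizontal axis, with 95% confidence interval) for each of the 9 genes (vertical axis), between ages within a cell type and between cell types within an age. Filled points have a limma adjusted p under 0.05, which 7, 3, 6 and 0 genes reached, with Nos2 at -3.45 for age in CD11B+ cells.

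The O4+ responses moved together with markers of other cells. The mean log2 signal of the 15 microglial markers in O4+ arrays at P5 was 12.92 to 13.53 after PBS and 14.19 to 14.63 after IL1B, with 11 called higher and 0 lower (median change 1.05). At P10 it was 11.97 to 12.70 after PBS and 12.42 to 13.07 after IL1B, with 7 called higher and 0 lower (median 0.50). Cd86, Fcgr2b, Ptgs2, Il4ra, Il6 and Nos2 rose in the same O4+ arrays at P5, and their part in each other's change was not tested. In CD11B+ cells at P5, 0 microglial markers rose and 3 fell, namely P2ry12 (-0.73), Fcrls (-0.84) and Gpr34 (-0.86). In these bulk samples fewer cells of a type and less RNA per cell cannot be told apart.

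Markers of neutrophils and monocytes rose in both cell types at P5. Of 9 measured markers, 8 were called higher in O4+ cells at P5 and 6 at P10. In CD11B+ cells 9 were called higher at P5 and 0 at P10, and 0 were called lower in any of these comparisons. The median log2 change of these markers was 3.27 and 1.82 in O4+ cells at P5 and P10, and 3.59 and 1.32 in CD11B+ cells. Their mean log2 signal in CD11B+ arrays at P5 was 9.36 to 10.49 after PBS and 12.64 to 13.44 after IL1B, and at P10 it was 9.54 to 11.73 and 10.49 to 11.41. In O4+ arrays at P5 it was 3.93 to 4.77 after PBS, where Ngp, Ltf and Ccr2 were well above background on 0 arrays, and 6.05 to 9.18 after IL1B. These markers thus moved with Nos2, Il4ra, Sphk1 and Il6 in CD11B+ cells at P5, and their part in those changes was not tested.

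**Figure D5:**
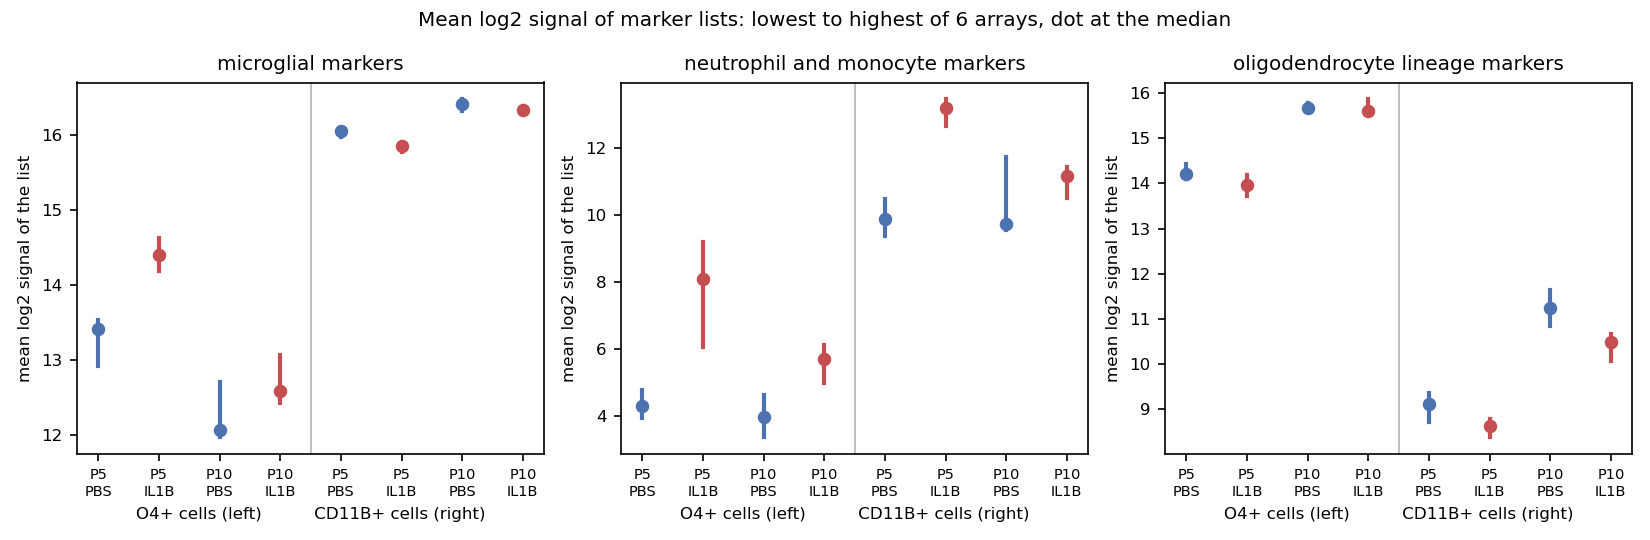
Mean log2 signal (vertical axis, all 48 arrays normalized together) over the genes of 3 marker lists, as the median with the lowest and highest array of each group of 6 (horizontal axis). The neutrophil and monocyte markers go from 9.36 to 10.49 after PBS to 12.64 to 13.44 after IL1B in CD11B+ arrays at P5, and the microglial markers in O4+ arrays at P5 from 12.92 to 13.53 to 14.19 to 14.63.

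Between P5 and P10 in PBS pups, 7 of the 9 genes fell in O4+ cells and 0 rose, against 12.6% and 8.52% of all genes, and 3 fell and 0 rose in CD11B+ cells, against 4.68% and 4.77%. The P5 PBS arrays used here are also the controls of the treatment comparisons at P5. In O4+ cells Tnf fell by 3.19 (SE 0.20), a 9.17-fold ratio (limma adjusted p = 3.94e-07). The falls of Sphk1, Ptgs2 and Cd86 were 3.47-fold, 2.80-fold and 3.18-fold, and those of Il4ra and Fcgr2b 2.15-fold and 1.58-fold. The fall of Il4ra, which was well above background on 4 of 6 P10 arrays, did not pass with slide as a block (change -0.99, limma adjusted p = 0.103). Scan day divides these O4+ arrays in the same way, so its fit is the same one. In the age comparisons slide and scan day entered as a correlation between arrays of a block, since no block held both ages. With normexp background correction the changes of Il4ra, Fcgr2b and Il6 were -0.42, -0.56 and -0.43 and none was called. Il6 was not well above background on any P10 PBS array and was at least 1.64-fold lower at P10 (limma adjusted p = 0.000103), where the bound sets the P5 mean against the lowest signal measured well above background on each P10 array. The microglial markers fell with these genes in O4+ cells, with 13 of 15 called lower (median -1.23), and their part in the falls was not tested. Nos2 did not pass in O4+ cells (change -0.32, limma adjusted p = 0.146). In CD11B+ cells the genes that fell were Ptgs2 by 1.82 (limma adjusted p = 3.46e-05), Sphk1 by 1.59 (limma adjusted p = 0.00849) and Il6 by 0.90 (limma adjusted p = 0.0153). Tnf and Nos2 were below the fold threshold there (changes -0.60 and -0.38), and 4 of the microglial markers were called higher at P10 and 0 lower. Without P10 PBS replicate 4, 5 or 6 Tnf was called lower (changes of -0.72, -0.64 and -0.65), as was Il4ra (changes of -2.68, -2.61 and -2.62). With scan day as a block neither Sphk1 (limma adjusted p = 0.0858) nor Il6 (limma adjusted p = 0.221) passed, and Il6 did not pass with slide as a block (limma adjusted p = 0.0875). The second Sphk1 probe gave -1.10 in CD11B+ cells and did not pass (limma adjusted p = 0.114).

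With all 48 arrays normalized together, 6 of the 9 genes were higher in CD11B+ than in O4+ cells after PBS and 1 was lower, at P5 (23.1% and 24.3% of all genes) and at P10 (22.4% and 27.3%). The higher genes were Ptgs2, Cd86, Fcgr2b, Il4ra, Tnf and Il6 at both ages. Cd86 was 14.7-fold higher at P5 and 45.4-fold at P10, Fcgr2b 20.2-fold and 32.8-fold, and Tnf 7.69-fold and 54.6-fold. For Ptgs2 the ratios were 8.31-fold and 6.72-fold, and for Il4ra 15.4-fold and 12.9-fold. At P10 the Il4ra arrays of CD11B+ cells were widely spread (SD 1.96), 4 of 6 O4+ arrays were well above background, and the fitted difference of the means, 2.57 on the log2 scale (95% interval 0.84 to 4.30), is a smaller fold than that ratio of medians. Il6 was 16.2-fold higher at P5 and at least 15.6-fold higher at P10, where O4+ arrays gave only a bound. Sphk1 was the gene that was lower in CD11B+ cells, by 2.15-fold at P5 (limma adjusted p = 0.0125) and 1.71-fold at P10 (limma adjusted p = 0.0443), and its groups overlapped at both ages. With slide as a block the Sphk1 difference did not pass at P5 (limma adjusted p = 0.0644) or P10 (limma adjusted p = 0.227), and with scan day as a block it did not pass either (limma adjusted p = 0.0852 and 0.0567). The Il4ra difference at P10 did not pass with slide as a block (limma adjusted p = 0.0796). The Sphk1 difference at P10 was also lost with replicate number as a block (limma adjusted p = 0.0859) and in 10 of 12 fits that left out 1 array, and the second Sphk1 probe gave -0.05 there (limma adjusted p = 0.918). Nos2 differed by -0.04 at P5 (95% interval -0.32 to 0.25) and by -0.09 at P10 (95% interval -0.41 to 0.24).

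Ordered over the 8 groups on that common scale, Nos2, Ptgs2, Cd86, Fcgr2b, Il4ra, Sphk1 and Il6 had their highest mean in CD11B+ cells after IL1B at P5, and Tnf in CD11B+ cells after IL1B at P10. Nos2 was at 10.76 in its highest group and at 8.86 in O4+ cells after IL1B at P5, each apart from the next, while the other 6 groups, from 7.88 down to 7.09, overlapped their neighbours. Cd86 and Fcgr2b had all 4 CD11B+ groups above all O4+ groups, and Cd86 ran from 13.48 to 7.77. Ptgs2 in O4+ cells after IL1B at P5 (8.19) overlapped the CD11B+ groups at P10 (8.38 and 7.61). For Tnf the CD11B+ groups, from 14.19 to 13.27, overlapped their neighbours in the order, and the O4+ groups ran from 11.27 after IL1B at P5 to 7.56 after PBS at P10. Il6 fell from 9.67 to 7.83 over the CD11B+ groups and from 6.32 to 2.38 over the O4+ groups. For Sphk1 each group overlapped the next, from 9.19 to 6.16.

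The genes whose signal ran most like that of a member were found by Pearson correlation over the 24 arrays of a cell type, among 14635 genes in O4+ and 13792 in CD11B+ cells. The points share groups, slides and cell makeup, and the correlations are descriptions. In O4+ cells Cd86 ran most like Emr1 (r = 0.995), which encodes the macrophage protein F4/80, and Vav1 (r = 0.995), and Fcgr2b most like Lyz2 (r = 0.976), a lysozyme of myeloid cells, and Ms4a4a (r = 0.976). Ptgs2 ran most like Cebpb (r = 0.991), a C/EBP factor, and Bcl3 (r = 0.988), and Tnf most like Nfkbiz (r = 0.974) and Nfkbid (r = 0.972), which encode nuclear NF-kappaB inhibitor family proteins. Il6 ran with Stat6 (r = 0.959) and the kinase Pim1 (r = 0.958), and Il4ra with the clock gene Per1 (r = 0.943) and Sh3bp2 (r = 0.942). At P10 in O4+ cells Il6 was well above background on 0 of 6 PBS and 2 of 6 IL1B arrays. Il4ra was so on 4 of 6 arrays in each group, so these correlations rest in part on dim values. Nos2 ran with the death ligand Tnfsf10 (r = 0.957) and the cytokine signalling inhibitor Socs2 (r = 0.948), and Sphk1 with Aldh1a2 (r = 0.951), an enzyme of retinoic acid synthesis, and the transporter Slc6a13 (r = 0.939).

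The nearest genes in CD11B+ cells were other ones. Nos2 ran with Rnf149 (r = 0.979) and the glucocorticoid-responsive Fkbp5 (r = 0.979), Ptgs2 with Gas7 (r = 0.948) and Etf1 (r = 0.940), and Cd86 with Heatr1 (r = 0.928) and Ms4a6b (r = 0.912). Fcgr2b ran with Man2b2 (r = 0.869) and the neutrophil granule gene Ngp (r = 0.857). For Il4ra the nearest were the interleukin 21 receptor Il21r (r = 0.926) and Nedd9 (r = 0.894), and for Sphk1 they were Pde2a (r = 0.936) and Egfr (r = 0.930). Tnf ran with Tssc1 (r = 0.885) and the activation marker Cd83 (r = 0.883), and Il6 with the urokinase receptor Plaur (r = 0.949) and Glipr1 (r = 0.944). No member had the same nearest gene in both cell types. Arg1, which was measured on too few arrays, was not ranked.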

How the data were processed

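Total RNA of 48 cell samples in 8 groups of 6 was labelled with Cy3 and hybridised to single-colour Agilent mouse 8x60K arrays, whose probe positions are on mm9. The authors deposited, per array, the spot intensity after background subtraction by Feature Extraction 10.7.3.1, which also removed spatial trends, and a table that proved to be the ratio of this intensity to the median of its array. Here, the deposited intensities were put on the log2 scale and brought to the same quantiles across 24 arrays per cell type (48 for cell type comparisons and the order of levels). Spots of the same probe were then averaged. Spots flagged as non-uniform (278) or as population outliers (5097) were left out of this average. They were kept where all spots of a probe on an array were flagged. Detection of a spot as well above background was taken from the scanner software, and the number of arrays limits the precision.

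Tests were made in R 4.3.3 with the linear models of limma 3.58.1 (lmFit, eBayes), with Benjamini-Hochberg adjustment over 55681 probes and no filter on dim probes. The test pools its spread over 10 residual degrees of freedom in a comparison of 12 arrays. A gene with 2 probes took the probe of higher mean signal over all arrays, and percentages of all genes cover 22290 genes with a RefSeq name. The scripts were tested on simulated data. Figures were drawn with matplotlib 3.10.9. All 9 genes were named, with the gene of the largest called change in each pathway list and treatment comparison and, as most like a gene, the 2 genes of highest correlation among those above background on all arrays of a cell type. The other Fc gamma receptor genes and single markers were named after their values were seen. The genes and lists were chosen with earlier results of these data known, and so are descriptions. Alternatives were another scaling (75th percentile), normexp background correction (offset 50), the deposited ratios, a filter on dim probes, slide, scan day or replicate number as a block, the second probe, joint normalization, the methods' t-test, other fold rules, a joint fit, leaving out each array, and Spearman in place of Pearson correlation.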

Additional observations from a re-analysis of the deposited data

Results flagged for a closer look

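In 9 of 72 sets of 6 arrays, 1 array lay far from the others by Dixon's ratio, the gap to the nearest array over the whole range, past the critical value that chance exceeds in about 5% of such sets. In O4+ cells after PBS at P10 these were Fcgr2b in replicate 1 (0.672) and both Ptgs2 (0.659) and Nos2 (0.724) in replicate 6, the array of that group that was on another slide than the other 5. The others were Ptgs2 in O4+ replicate 3 after IL1B at P5 (0.680), Fcgr2b in CD11B+ replicate 2 after IL1B at P10 (0.637), Sphk1 in CD11B+ replicate 3 after IL1B at P5 (0.632) and in CD11B+ replicate 4 after IL1B at P10 (0.762). Arg1 stood apart in O4+ replicate 5 after IL1B at P10 (0.665), where it was not well above background, and in CD11B+ replicate 6 after PBS at P10 (0.806).

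Of 36 differences between responses tested for the 9 genes, 16 passed. Between ages in O4+ cells they were Nos2 (-0.97), Ptgs2 (-1.04), Cd86 (-1.08), Fcgr2b (-1.0), Il4ra (-2.82), Sphk1 (1.35) and Tnf (1.09). Between ages in CD11B+ cells they were Nos2 (-3.45), Cd86 (-0.22) and Tnf (1.55). Between cell types at P5 they were Nos2 (1.94), Ptgs2 (-1.23), Cd86 (-1.46), Fcgr2b (-1.29), Sphk1 (1.89) and Tnf (-1.0). Over all genes, 11.9% passed with a positive and 6.95% with a negative difference between ages in O4+ cells. In CD11B+ cells these shares were 16.3% and 7.88%. Between cell types they were 5.20% and 11.7% at P5, and 4.54% and 6.19% at P10.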

How the results depend on the processing

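Of 56 called values of the 9 genes, 37 kept their direction and call under every alternative other than leaving out an array, and 13 values that were not called were called under some alternative. In O4+ cells the number of genes called after IL1B at P10 was 2 with normexp background correction, under which Ptgs2 and Fcgr2b were not called, and the number called between ages was 4. In CD11B+ cells at P5 it was 3 with slide as a block and 8 with no fold threshold. In CD11B+ cells at P10 it was 0 with slide as a block, 2 with a filter on dim probes, 2 with the second probe and 3 with all 4 groups in 1 fit. Between ages in CD11B+ cells it was 5 with 75th percentile scaling, 1 with scan day as a block and 5 with no fold threshold, and the age difference of the response in these cells was found for 1 gene with slide as a block. The age difference of Cd86 in CD11B+ cells turned from -0.22 to 0.024 with the deposited ratios. The cause was not tested in any of these. Leaving out 1 array gave 6 to 6 called genes in O4+ cells at P5, 3 to 5 at P10, 4 to 6 in CD11B+ cells at P5, 0 to 3 at P10, 7 to 7 between ages in O4+ cells, 3 to 5 in CD11B+ cells, and 7 to 7 and 6 to 8 between cell types at P5 and P10.

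Per the study, O4+ and CD11B+ cells came from the same animals, but nothing says that equal replicate numbers mark the same animals. The correlation of same-numbered arrays between cell types ran from 0.047 to 0.36 at P5 and from -0.04 to 0.32 at P10. It was above 0.1 in 5 of 6 pairs at each age, and 4 of 6 pairs at P5 and 5 of 6 at P10 correlated best with their own number, so pairing between cell types is hinted at by the data. As not every pair was above 0.1, the numbers were not taken as pairs. Between treatments in O4+ cells 5 of 6 pairs were above 0.1 at P5 and 3 at P10, and in CD11B+ cells 1 at each age. With the replicate block the counts were 6, 3, 5 and 1 for the treatment comparisons in O4+ cells at P5 and P10 and CD11B+ cells at P5 and P10, 7 and 3 between ages, 7 and 6 between cell types, and 7, 2, 7 and 0 for the differences between responses. The block ended the calls of Fcgr2b in O4+ cells at P10 (limma adjusted p = 0.124), Sphk1 between cell types at P10 (limma adjusted p = 0.0859) and the age difference of Cd86 in CD11B+ cells (limma adjusted p = 0.056), gave a call for the Il4ra response between cell types at P5 (limma adjusted p = 0.0028), and changed no other call. Of the 32 genes most like a member by Pearson correlation, 9 were also named by Spearman. Low signal limits Arg1 in all groups and Il6 and the second Il4ra probe in O4+ cells at P10.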

Other observations

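Arg2, and not the marker Arg1, was the arginase measured above background on all CD11B+ arrays at P5, with mean log2 signals of 6.00 after PBS and 9.07 after IL1B. Border-associated macrophage markers rose for 3 of 7 genes in O4+ cells at P5 and for 0 of 7 in CD11B+ cells at either age.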
